A study of Ovis aries with 3 samples.

Results

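The myogenic regulatory factors are the transcription factors MYF5, MYF6 (also called MRF4), MYOD1 and MYOG (myogenin), and their transcripts were followed here in single cells of whole sheep embryos. They were taken by symbol from the gene table of the series, where the 4 symbols stood on 5 of 26478 gene identifiers. No threshold on a measured value was used, but earlier results of these data were known when they were chosen. The study compared Hu sheep (HS), which carry the wild-type T gene, with Hulunbuir short-tailed sheep (HSTS), which carry a mutated T gene, by droplet single-cell RNA sequencing (10x Genomics 3′ chemistry). Red blood cells were lysed during the preparation of all cell suspensions. The libraries were E16 HS (day 16, Hu sheep), E19 HS (day 19, Hu sheep) and E19 HSTS (day 19, Hulunbuir short-tailed sheep), with 1 library per condition and therefore no replicate. The label of the E16 HS library names 1 embryo, whereas the study's methods count 3 E16 HS embryos, and whether they were pooled is not given in the sources used here. E19 HS against E16 HS is a comparison of days within a breed, and E19 HSTS against E19 HS a comparison of breeds at a single day. E19 HSTS against E16 HS changes day and breed together. The last of these and the Hu sheep comparison share the E16 HS library.

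Skeletal muscle of the trunk and limbs arises from the somites, the paired blocks of mesoderm along the neural tube. PAX3 and PAX7 act in its precursor cells. MYF5, MYF6 and MYOD1 commit cells to the muscle lineage, and MYOG drives their differentiation, in which genes of the contractile apparatus such as MYLPF (fast skeletal myosin regulatory light chain) and TNNC2 (fast skeletal troponin C) are switched on. The factors are basic helix-loop-helix proteins that bind DNA with E-protein partners, and ID proteins block that pairing.

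After a filter of 200 to 6000 genes, 1000 to 30000 unique molecular identifiers (UMIs, the counted molecules) and at most 10% mitochondrial UMIs, 31576 of 35823 deposited cells were kept. They were 11329 cells in E16 HS, 10629 in E19 HS and 9618 in E19 HSTS. The summed depth lay between 88733467 UMIs in E19 HS and 113213654 in E16 HS, and the median depth of a cell was 9046 UMIs in E16 HS, 6900 in E19 HS and 8675 in E19 HSTS. Any pair of libraries shared between 31 and 37 kept barcodes, at most 0.348% of a library. Intervals below are exact 95% intervals (Poisson for levels, binomial for shares of cells, conditional binomial for ratios), and the limit given beside a share of 0 is 3 cells of the cells counted. They cover counting error within a library and not the variation between embryos, and no p-value can be given with 1 library per condition. For levels and ratios, counting error here treats each UMI as independent. It leaves out the uneven spread of UMIs over cells. These intervals are therefore too narrow for genes with many UMIs in few cells, such as MYLPF and MYF6 at day 19.

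The gene table listed MYF6 under ENSOARG00020008943 and ENSOARG00020008989, and every MYF6 UMI in every library fell on the former. MYF5 (ENSOARG00020009026) is the next gene in that table, and in the RefSeq annotation of assembly ARS-UI_Ramb_v3.0, which has a single MYF6 entry and is not the build of the files, MYF6 and MYF5 are likewise neighbours, with LIN7A after MYF5. MYOD1 (ENSOARG00020003202) and MYOG (ENSOARG00020003647) each had 1 identifier. The files give no genome coordinates, and the counts are of transcript 3′ ends, so that levels of different genes also depend on how well each 3′ end is annotated.

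The 4 factors were rare, and they were detected to different extents. MYF6 was found in all libraries with 114 UMIs in E16 HS, 273 in E19 HS and 306 in E19 HSTS. MYF5 followed with 22, 45 and 73 UMIs in the same order. MYOG had 0, 8 and 13 UMIs, and MYOD1 had 0, 0 and 4. Of the factors linked to commitment, MYF5 and MYF6 thus had UMIs at day 16 and MYOD1 had none. MYOG was detected at day 19 alone and MYOD1 in the day 19 HSTS library alone.

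MYF6 was at 1.01 CPM (UMIs per 1000000 UMIs, interval 0.831 to 1.21) in E16 HS, 3.08 (2.72 to 3.46) in E19 HS and 3.07 (2.74 to 3.44) in E19 HSTS. The E19 HS level was 3.06 times that of E16 HS (2.45 to 3.84), the E19 HSTS level was 3.05 times (2.45 to 3.82), and the E19 HSTS to E19 HS ratio was 0.999 (0.846 to 1.18). Both day 19 levels lay above the E16 HS level beyond counting error, and they did not differ from each other beyond it. Cells in which the red cell genes AHSP and BLVRB were both detected numbered 3422, 1505 and 2886, and without them the HSTS to HS ratio became 1.31 (1.10 to 1.55), so that this equality depends on which cells are summed.

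MYF5 was at 0.194 CPM (0.122 to 0.294) in E16 HS, 0.507 (0.370 to 0.679) in E19 HS and 0.733 (0.575 to 0.922) in E19 HSTS. Its ratio to E16 HS was 2.61 (1.53 to 4.56) in E19 HS and 3.77 (2.32 to 6.38) in E19 HSTS. The HSTS to HS ratio at day 19 was 1.45 (0.984 to 2.14), and this interval holds 1. Without the AHSP and BLVRB cells it became 1.89 (1.28 to 2.82) and over all deposited cells 1.46 (1.01 to 2.14), and the interval also lay just above 1 without the cells of highest doublet score and with TMM or DESeq2 scaling. Whether counting error separates the day 19 libraries thus depends on the cells summed and the scaling. The order of the levels was E16 HS, E19 HS and E19 HSTS in each case.

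MYOG stood at 0.0902 CPM (0.0389 to 0.178) in E19 HS and 0.131 (0.0695 to 0.223) in E19 HSTS. The 0 of 11329 cells in E16 HS allows a share of up to 0.0265% of cells with a MYOG UMI. Set against 3 UMIs in E16 HS, MYOG was at least 3.40-fold higher in E19 HS and at least 4.93-fold higher in E19 HSTS, on 8 and 13 UMIs. These bounds concern the 0 of E16 HS alone. With counting error on both sides the ratio to 3 UMIs had an interval of 0.817 to 19.9 in E19 HS, which holds 1, and of 1.35 to 27.0 in E19 HSTS. The HSTS to HS ratio was 1.45 (0.556 to 4.03).

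MYOD1 was seen as 1 UMI in each of 4 E19 HSTS cells, which is 0.0402 CPM (0.0109 to 0.103). The 0 of 10629 cells in E19 HS allows a share of up to 0.0282%, against 0.0416% (0.0113 to 0.106%) in E19 HSTS, so that a difference between these libraries was not detectable at this depth.

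As a yardstick for the whole table, a gene was counted as changed when its ratio was at least 2 in either direction and the higher library held at least 10 UMIs. Between E19 HS and E16 HS, 8.84% of the genes tested were higher and 9.02% lower, and both factors with enough UMIs, MYF5 and MYF6, were higher. Between E19 HSTS and E16 HS, 8.39% were higher and 12.0% lower, and MYF5 and MYF6 were higher. MYOG reached the minimum through E19 HSTS alone, where it is the higher library, and is not counted. Between E19 HSTS and E19 HS, 3.05% were higher and 4.13% lower, and none of MYF5, MYF6 and MYOG was changed.

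**Figure D1:**
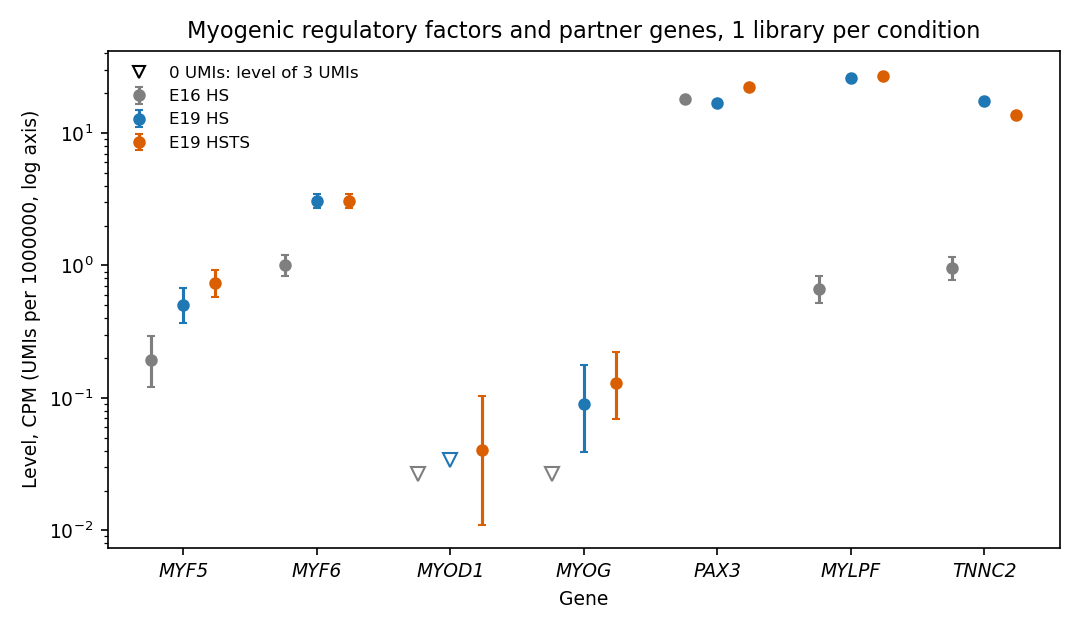
Level of each factor and of PAX3, MYLPF and TNNC2 in the 3 libraries, in CPM on a log axis, with exact 95% Poisson intervals. Open triangles stand at the level of 3 UMIs where a library had 0. MYF5 and MYF6 lie higher in both day 19 libraries than in E16 HS, MYOG is at 0 UMIs in E16 HS, and PAX3 stays between 16.9 and 22.2 CPM.

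PAX3, the factor of the precursor cells, changed less than MYF5 and MYF6. It had 2055 UMIs in E16 HS (18.2 CPM), 1504 in E19 HS (16.9 CPM) and 2213 in E19 HSTS (22.2 CPM), with a ratio to E16 HS of 0.934 (0.873 to 0.998) in E19 HS and 1.22 (1.15 to 1.30) in E19 HSTS. Its HSTS to HS ratio was 1.31 (1.23 to 1.40), and 1.68 without the AHSP and BLVRB cells. MYLPF rose from 75 UMIs in E16 HS to 2293 in E19 HS and 2704 in E19 HSTS, which is 39.0 times (31.0 to 49.8) and 41.0 times (32.6 to 52.3) the E16 HS level. TNNC2 rose from 108 UMIs to 1546 and 1352, or 18.3 times (15.0 to 22.4) and 14.2 times (11.7 to 17.5). Without the AHSP and BLVRB cells, MYLPF in E19 HSTS was 69.3 times the E16 HS level. The contractile genes thus increased by a larger factor than MYF5 and MYF6 did.

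MYF6 rose in UMIs per cell, and at equal depth also in the share of cells. As sequenced, the share of cells with MYF6 had overlapping intervals between neighbouring libraries. MYF6 was detected in 108 cells of E16 HS (0.953%, 0.783 to 1.15%), 114 of E19 HS (1.07%, 0.886 to 1.29%) and 124 of E19 HSTS (1.29%, 1.07 to 1.54%). Cells with 2 or more MYF6 UMIs numbered 5, 47 and 36, and the highest count in a cell was 3, 20 and 26. The cells with several UMIs were thus nearly all from day 19. The E16 HS library was the deeper one per cell, and with every cell thinned to 3000 UMIs (which left out between 1106 and 1345 shallower cells per library) the MYF6 share was 0.300% (0.202 to 0.427%) in E16 HS, 0.592% (0.447 to 0.770%) in E19 HS and 0.634% (0.477 to 0.827%) in E19 HSTS. At this equal depth both day 19 shares lay above that of E16 HS with no overlap. The 10 cells with the most MYF6 UMIs held 14.0% of them in E16 HS, 39.6% in E19 HS and 46.4% in E19 HSTS, so that the day 19 levels rest to a large extent on few cells.

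MYF5 had few UMIs in any cell. It was detected in 22 cells of E16 HS (0.194%, 0.122 to 0.294%), 38 of E19 HS (0.358%, 0.253 to 0.490%) and 63 of E19 HSTS (0.655%, 0.504 to 0.837%). All 22 of the E16 HS cells had 1 UMI, and at day 19 the highest count was 2 in E19 HS and 3 in E19 HSTS. As sequenced, the increase of MYF5 was thus an increase in the number of cells with it, at nearly 1 UMI per cell. After thinning, the shares were 0.0599% (0.0220 to 0.130%) in E16 HS, 0.183% (0.107 to 0.293%) in E19 HS and 0.211% (0.125 to 0.334%) in E19 HSTS. These rest on 6, 17 and 18 cells, and both day 19 intervals overlapped that of E16 HS. The 2 day 19 libraries lay closer together than as sequenced. MYOG was seen in 7 cells of E19 HS and 13 of E19 HSTS, with at most 2 UMIs in a cell.

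**Figure D2:**
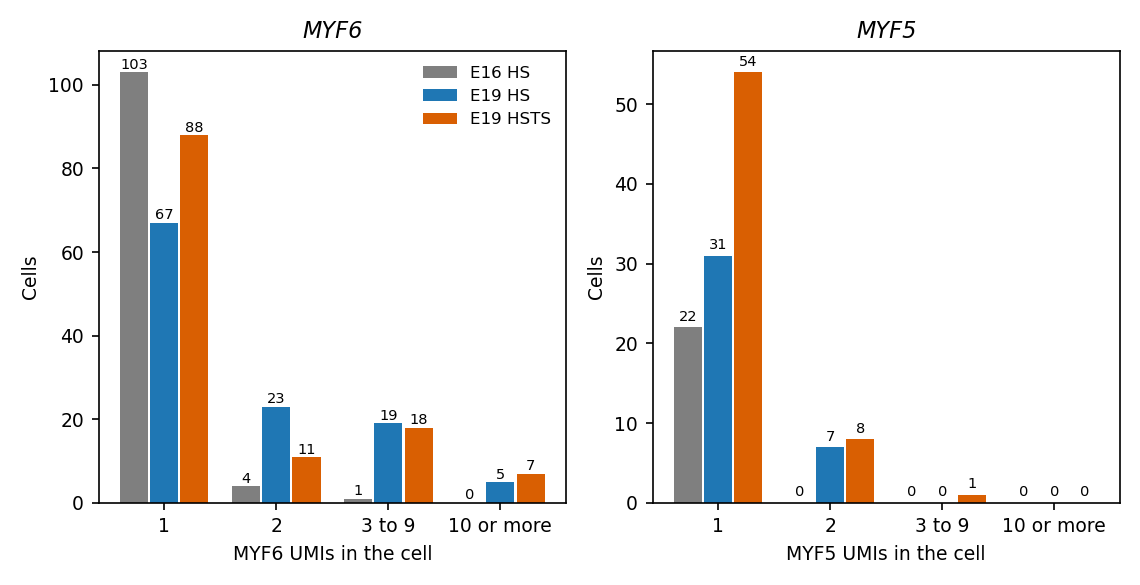
Number of cells (linear axis from 0) by the number of MYF6 UMIs (left) or MYF5 UMIs (right) in the cell, for the 3 libraries. Cells with 3 or more MYF6 UMIs are 1 in E16 HS, 24 in E19 HS and 25 in E19 HSTS, whereas MYF5 stays at 1 UMI in most cells.

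The level at which free RNA in the droplets gives a factor UMI was read in red cells, which should lack these genes. In cells with 10 or more AHSP UMIs (AHSP stabilises alpha haemoglobin), a set chosen after values were seen, MYF6 was found in 3 of 1859 cells in E16 HS (0.161%), 1 of 1344 in E19 HS (0.0744%) and 6 of 2258 in E19 HSTS (0.266%), although their median depth of 14556 to 18420 UMIs was higher than the 6358 to 7998 of the other cells. MYF5, MYOD1 and MYOG had no UMI in these cells in any library. In the wider set with AHSP and BLVRB both detected, MYF6 was in 21 of 3422 cells of E16 HS (0.614%, 0.380 to 0.937%), 3 of 1505 of E19 HS (0.199%) and 12 of 2886 of E19 HSTS (0.416%), MYF5 in 6 (0.175%), 0 and 3 (0.104%), and MYOD1 and MYOG in 1 each in E19 HSTS. The shares of MYF6 in all kept cells were above the background of the stricter set in each library. In E16 HS, the intervals of the shares in all kept cells (0.953% for MYF6 and 0.194% for MYF5) overlapped those of the wider set. Both day 19 shares were above it. The wider set also holds cells with fewer than 10 AHSP UMIs, and AHSP was detected in 39.2% of E16 HS cells without a factor. It can therefore include cells that express a factor, and it cannot decide whether the E16 HS detections are background. MYLPF was found in 0.323%, 0.818% and 0.797% of the cells with 10 or more AHSP UMIs, against 0.644%, 1.09% and 1.81% of all kept cells.

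Pairs of marker genes, both detected in a cell, were used to see where the factors lay, and a cell can carry several pairs. In E16 HS, MYF6 was found at a like low share in several pairs and at a higher share beside somite genes. It was detected in 5 of 688 cells with the gut pair CLDN7 and KRT7 (0.727%), 3 of 399 with the spinal cord pair PAX6 and SOX2 (0.752%), and 32 of 3232 with the mesenchyme pair COL1A2 and TMEM88 (0.990%). In the 270 cells with the somite pair TWIST1 and MEOX1 it was detected in 11 (4.07%, 2.05 to 7.17%), and in the 1106 PAX3 cells in 34 (3.07%, 2.14 to 4.27%). The intervals of the somite pair and of PAX3 cells lay above the shares in the other pairs named.

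At day 19 the MYF6 share was again highest beside somite genes and PAX3 among the pairs with over 100 cells. MYF6 was in 8 of 247 somite-pair cells in E19 HS (3.24%) and 18 of 368 in E19 HSTS (4.89%), and MYF5 was in 7, 2 and 11 somite-pair cells of E16 HS, E19 HS and E19 HSTS (2.59%, 0.810% and 2.99%). PAX3 cells held MYF6 in 4.50% and 5.11% and any factor in 5.89% and 6.78% at day 19, against 4.07% for any factor in E16 HS. In cells with the heart pair MYL7 and TNNT2 (27, 116 and 87 cells), MYF6 had no UMI in any library, and MYF5 was in a single E19 HSTS cell. In the early neuron pair NEFM and NEFL, no factor UMI was found in the 186 cells of E19 HS or the 165 of E19 HSTS. In E16 HS a factor was found in 2 of 97 such cells (2.06%, 0.251 to 7.25%). The neural tube pair GADD45A and SELENOM, which are not restricted to that tissue, had MYF6 in 0.911%, 0.790% and 2.40% of cells.

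Any of the 4 factors was detected in 127 cells of E16 HS (1.12%, 0.935 to 1.33%), 134 of E19 HS (1.26%, 1.06 to 1.49%) and 165 of E19 HSTS (1.72%, 1.47 to 2.00%). Of these, 3 cells in E16 HS (2.36%, 0.490 to 6.75%), 24 in E19 HS (17.9%, 11.8 to 25.5%) and 34 in E19 HSTS (20.6%, 14.7 to 27.6%) held 2 or more factors. Joint detection was therefore more frequent in both day 19 libraries than in E16 HS beyond counting error, and the day 19 shares overlapped. No cell held all 4 factors. The most frequent pair was MYF5 with MYF6, alone in 18 cells of E19 HS and 21 of E19 HSTS, followed by MYF6 with MYOG in 5 and 6 cells. MYF5, MYF6 and MYOG were found together in 1 and 4 cells.

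Read from MYF5, 19 of 38 cells in E19 HS (50.0%, 33.4 to 66.6%) and 26 of 63 in E19 HSTS (41.3%, 29.0 to 54.4%) also had MYF6, against 0.897% and 1.03% of cells without MYF5. In E16 HS it was 3 of 22 (13.6%, 2.91 to 34.9%), against 0.929%. Since MYF5 and MYF6 are neighbouring genes, whether reads of one transcript were counted for the other was not tested.

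MYOG was mostly seen where MYF6 was. Of the MYOG cells, 6 of 7 in E19 HS (85.7%, 42.1 to 99.6%) and 10 of 13 in E19 HSTS (76.9%, 46.2 to 95%) had MYF6, against 1.02% and 1.19% of other cells. MYF5 was in 1 of the 7 and 4 of the 13. Of the 4 MYOD1 cells in E19 HSTS, 3 had MYF6, 1 had MYF5 and none had MYOG.

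PAX3 accompanied the factors at both days. In E16 HS it was found in 14 of 22 MYF5 cells (63.6%, 40.7 to 82.8%) and 34 of 108 MYF6 cells (31.5%, 22.9 to 41.1%), against 9.66% and 9.55% of cells without the factor. In E19 HS the shares were 20 of 38 MYF5 cells (52.6%) and 42 of 114 MYF6 cells (36.8%), against 8.63% and 8.48%. In E19 HSTS they were 28 of 63 (44.4%) and 55 of 124 (44.4%), against 11.0% and 10.8%. As sequenced, the PAX3 share was above that of the cells without the factor in each library, and the shares of the 3 libraries overlapped within their intervals. Factor cells were deeper than the rest (median 11658 against 9016.5 UMIs in E16 HS, 8712.5 against 6880 in E19 HS and 9994 against 8654 in E19 HSTS), and more genes are detected in deeper cells. Thinned to 3000 UMIs, PAX3 was found in 18.2% of MYF6 cells of E19 HS, with 5.02% of the other cells, and in 16.7% of those of E19 HSTS, with 5.95% of the other cells. In E16 HS it was then in 3 of 30 MYF6 cells (10.0%, 2.11 to 26.5%), and in 2 of 6 MYF5 cells (33.3%, 4.33 to 77.7%), intervals that both hold the 4.79% of other cells.

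MYLPF and TNNC2 were a matter of day 19. In E16 HS, none of the 22 MYF5 cells had either gene, and among the 108 MYF6 cells 2 had MYLPF and 6 had TNNC2 (5.56%, 2.07 to 11.7%, against 0.606%). In E19 HS, 35 of 114 MYF6 cells had MYLPF (30.7%, 22.4 to 40.0%, against 0.770%) and 42 had TNNC2 (36.8%, 28.0 to 46.4%, against 1.16%). In E19 HSTS it was 43 of 124 for MYLPF (34.7%, 26.4 to 43.7%, against 1.38%) and 41 for TNNC2 (33.1%, 24.9 to 42.1%, against 1.21%). The day 19 shares lay above the E16 HS shares with no overlap of intervals, and those of the breeds overlapped. Thinned to 3000 UMIs, the MYF6 cells of E19 HS had MYLPF in 36.4% (other cells 0.401%) and those of E19 HSTS in 29.6% (other cells 0.638%).

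As sequenced, MYF5 cells held the contractile genes in like shares in both day 19 libraries. MYLPF was in 13 of 38 (34.2%) and 20 of 63 (31.7%), and TNNC2 in 14 (36.8%) and 23 (36.5%). Thinned to 3000 UMIs, MYLPF was in 5 of 17 (29.4%) and 2 of 18 (11.1%, 1.38 to 34.7%), with wide intervals. Of the MYOG cells, 3 of 7 in E19 HS and 9 of 13 in E19 HSTS had MYLPF, and 2 and 8 had TNNC2, with intervals too wide to order the factors by these shares.

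**Figure D3:**
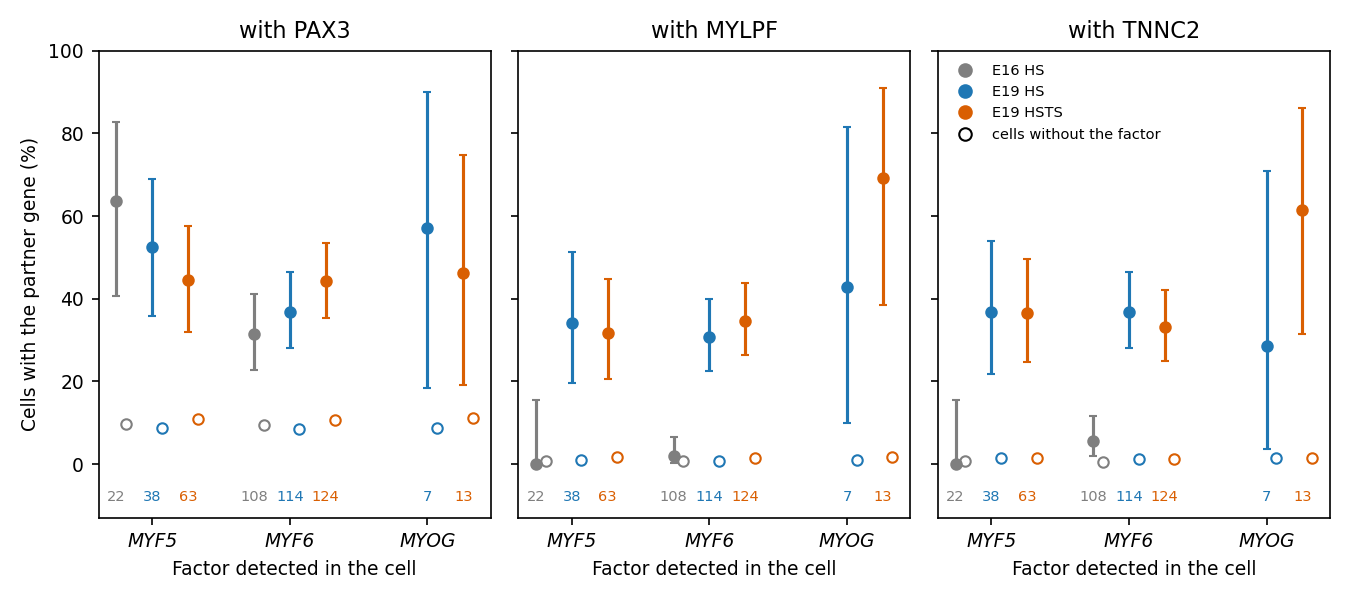
Percent of cells with PAX3, MYLPF or TNNC2 among cells with MYF5, MYF6 or MYOG (filled points with exact 95% binomial intervals, number of cells below) and among cells without that factor (open points), in the 3 libraries. PAX3 is above the open points in all libraries, whereas MYLPF and TNNC2 lie between 30.7 and 36.8% with MYF5 and MYF6 at day 19 and at no more than 5.56% in E16 HS.

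Where MYF5 was seen without MYF6, few MYLPF molecules were found. In E19 HS, 3 of 19 such cells had MYLPF, with 9 UMIs in all, while 10 of the 19 cells with both factors had it, with 703 UMIs, and 25 of the 95 cells with MYF6 and no MYF5, with 1404 UMIs. In E19 HSTS the same 3 sets held MYLPF in 6 of 37 cells (11 UMIs), 14 of 26 cells (866 UMIs) and 29 of 98 cells (1422 UMIs). Among all cells without MYF5, a lower share held MYLPF, at 0.973% in E19 HS and 1.61% in E19 HSTS. PAX3 was in 12 of 19 cells with MYF5 alone, 8 of 19 with both and 34 of 95 with MYF6 alone in E19 HS. In E19 HSTS it was in 17 of 37, 11 of 26 and 44 of 98, and no order is read from these small counts. The cells with both factors were the deepest (median 11810 and 12501 UMIs, compared with 7145 and 9115 for MYF5 without MYF6), and the part of depth in these counts was not tested.

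The MYF6 count of a cell went with the contractile genes. In E19 HS, MYLPF was found in 10 of 67 cells with 1 MYF6 UMI, 6 of 23 with 2 and 19 of 24 with 3 or more, and in E19 HSTS in 17 of 88, 5 of 11 and 21 of 25. TNNC2 was in 16, 6 and 20 of the same cells in E19 HS and in 16, 4 and 21 in E19 HSTS. MYH3, the embryonic myosin heavy chain, was in 1, 2 and 14 cells and in 7, 2 and 12 cells. MYF5 was in 7, 3 and 9 cells of E19 HS and 9, 1 and 16 of E19 HSTS, and PAX3 in 26, 7 and 9 and in 37, 6 and 12. Thus the shares with MYLPF, TNNC2, MYH3 and also MYF5 were highest at 3 or more MYF6 UMIs in both libraries, and that of PAX3 changed little. Median depth was 8567, 6864 and 11790.5 UMIs in E19 HS and 9537, 10093 and 12640 in E19 HSTS, so that the cells with 3 or more MYF6 UMIs were also the deepest.

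**Figure D4:**
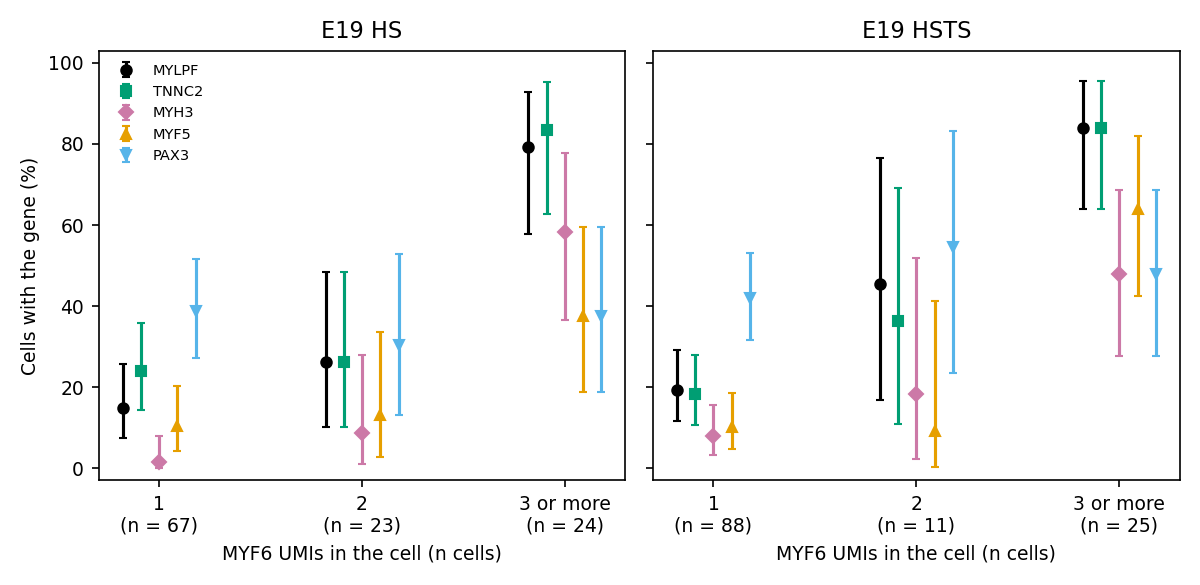
Percent of cells (exact 95% binomial intervals) with MYLPF, TNNC2, MYH3, MYF5 or PAX3 by the number of MYF6 UMIs in the cell, for E19 HS (left) and E19 HSTS (right). MYLPF is in 19 of 24 and 21 of 25 cells with 3 or more MYF6 UMIs, whereas PAX3 shows no such step.

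Nearly all MYLPF molecules came from a handful of cells. Cells with 10 or more MYLPF UMIs, a limit chosen after the counts were seen, numbered 0 in E16 HS, 16 in E19 HS and 21 in E19 HSTS, and they held 92.8% and 91.8% of the MYLPF UMIs of the day 19 libraries. The counts fell apart at this limit, since the highest count below it was 8 and 7 UMIs and the lowest above it 31 and 13. These cells also held 82.7% and 81.6% of the TNNC2 UMIs and 41.4% and 46.4% of the MYF6 UMIs, but 13.3% and 11.0% of the MYF5 UMIs. MYF6 was detected in 15 of the 16 and 17 of the 21, MYF5 in 5 and 6, MYOG in 1 and 5, MYOD1 in 0 and 1, and PAX3 in 6 and 7. TNNC2 and ACTC1 (cardiac alpha actin, also made by embryonic skeletal muscle) were in all of them, and MYH3 in 14 and 18. Of the remaining 100 and 153 cells with MYLPF, 20 and 26 held MYF6. In E19 HS the cells with many MYLPF molecules were therefore nearly all MYF6 cells. In E19 HSTS most were, and those without MYF6 had no other factor detected. Most MYF5 molecules lay outside the cells with many MYLPF molecules.

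The heart markers were set beside these values, since heart cells share many contractile genes. In the cells with 10 or more MYLPF UMIs, the atrial light chain MYL7 had no UMI in either library. MYL2, the light chain of ventricle and slow muscle, was in 16 of 16 and 20 of 21, and MYH6 was in 2 and 3. Summed over the 6 heart genes MYL7, MYL2, MYH6, NPPA, NKX2-5 and TBX5, the factor cells stood at 3.26, 225 and 303 CPM in E16 HS, E19 HS and E19 HSTS, and all other cells at 14.2, 155 and 191. NPPA was at 0 in all cells and NKX2-5 at 0 in all factor cells. In E19 HS, MYL2 gave 273 of the 278 heart-list UMIs of the factor cells, and MYL7 was in 1 of 134. In E19 HSTS, MYL7 gave 285 of 561, all in 2 of 165 cells, both with MYF5 and without MYF6. In the other factor cells of E19 HSTS, MYL7 had no UMI while MYL2 was in 28 of 165 factor cells.

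Smooth muscle, endothelial, neural and red cell markers were lower in factor cells than in the others, except for the smooth muscle sum in E19 HSTS. MYH11 and CNN1 together stood at 3.26, 3.23 and 13.5 CPM in factor cells and 7.87, 15.3 and 11.8 in the others. KDR and PLVAP together were at 11.1, 12.9 and 14.1 CPM against 20.4, 61.6 and 37.1, and PAX6 and SOX2 together at 20.9, 54.9 and 29.7 against 55.6, 147 and 101. In E19 HSTS, CNN1 was in 8 of 165 factor cells and MYH11 in 1. The red cell genes AHSP and BLVRB were at 234, 128 and 244 CPM against 1256, 1059 and 1708.

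The wider pathway was described by 5 gene lists. Of the 13 upstream genes, 4 were higher and 2 lower in E19 HS than in E16 HS, where 8.84% of all genes were higher and 9.02% lower, with a median log2 ratio of -0.13 against -0.21 over all genes tested. MEOX2, a homeobox gene of the somite, rose 2.07 times (1.83 to 2.34), EYA2, a transcriptional coactivator, 3.40 times (2.03 to 5.92) and PAX7 2.73 times (1.60 to 4.83), from 21 to 45 UMIs. LBX1, which marks migrating limb muscle precursors, went from 1 to 12 UMIs (15.3 times, 2.27 to 654), reached the minimum through E19 HS alone and stood at 2 UMIs in E19 HSTS. The presomitic mesoderm genes MSGN1 and TBX6 fell from 77 to 12 UMIs (0.199 times, 0.0985 to 0.368) and from 32 to 3 (0.120 times, 0.0234 to 0.382). TBX6 reached the minimum through E16 HS alone. In E19 HSTS, MSGN1 and TBX6 were at 1 and 2 UMIs, and both reached the minimum through E16 HS alone. Of the 12 upstream genes tested there, 3 were higher and 2 lower than in E16 HS, where 8.39% of all genes were higher and 12.0% lower. PAX7 was among the higher, at 74 UMIs (4.01 times, 2.44 to 6.85). Between E19 HSTS and E19 HS, LBX1 and MSGN1 were lower and none was higher, where 3.05% of all genes were higher and 4.13% lower. Both reached the minimum through E19 HS alone. The other 7 upstream genes, PAX3 and MEOX1 among them, did not reach the fold used in E19 HS over E16 HS.

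No partner or inhibitor of the factors with enough UMIs reached the fold used. MSC, at 2, 6 and 4 UMIs, was not tested in any comparison. Among the 14 tested (MEF2, E-protein, ID, HES and HEY genes and TWIST1), 0 were higher and 0 lower in each of the 3 comparisons. Over all genes tested, 8.84% were higher and 9.02% lower in E19 HS over E16 HS. The shares were 8.39% and 12.0% in E19 HSTS over E16 HS, and 3.05% and 4.13% in E19 HSTS over E19 HS. At such shares few of 14 genes would be counted, so that the 0 is not read as a result. Their median log2 ratio was 0.42 in E19 HS over E16 HS and 0.29 in E19 HSTS over E16 HS, above the -0.21 and -0.25 of all genes tested. ID1 and ID3, which block E-protein pairing, remained among the most abundant of them, with 72347 and 37566 UMIs in E19 HS.

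Of 11 signal genes tested between E19 HS and E16 HS, 2 were higher and 1 lower, where 8.84% of all genes were higher and 9.02% lower. The share lower is thus near that of all genes. SHH, made by notochord and floor plate, rose 2.38 times (1.59 to 3.63) from 38 to 71 UMIs, WNT7A, a dorsal ectoderm signal, 8.93 times (2.05 to 81.0) on 14 against 2 UMIs (reaching the minimum through E19 HS alone), and the Notch ligand DLL1 fell to 0.383 times (0.352 to 0.415). In E19 HSTS over E16 HS, 3 of 12 were higher and 4 lower, where 8.39% of all genes were higher and 12.0% lower. Of these 3, WNT1 (12 against 2 UMIs) and WNT7A (24 against 2) reached the minimum through E19 HSTS alone. Of the 4 lower, WNT3A (8 against 30) and WNT6 (9 against 33) reached it through E16 HS alone. In E19 HSTS over E19 HS the only change was a lower WNT6, at 9 against 22 UMIs (0.365 times, 0.148 to 0.824). WNT6 reached the minimum through E19 HS alone. In that comparison, 3.05% of all genes were higher and 4.13% lower.

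Muscle structure genes had the largest median log2 ratio to E16 HS of the 5 lists in both day 19 libraries, with fusion and synapse close at 2.13 in E19 HS. Of 23, 20 had a symbol in the table (TNNT3, MYL1 and TTN did not), 17 had enough UMIs, and 12 were higher and 0 lower in both day 19 libraries than in E16 HS. Over all genes tested, 8.84% were higher and 9.02% lower in E19 HS, and 8.39% and 12.0% in E19 HSTS. Of the 12, MYH3 had 5 UMIs in E16 HS and reached the minimum through the day 19 libraries alone. Their median log2 ratio to E16 HS was 2.21 (E19 HS) and 2.18 (E19 HSTS), where all genes tested had -0.21 and -0.25. ACTC1 rose 8.31 times (7.93 to 8.70) in E19 HS, the light chain MYL4 4.61 times (4.42 to 4.82), the slow troponin C gene TNNC1 3.80 times (3.64 to 3.97) and the slow troponin I gene TNNI1 2.72 times (2.60 to 2.86). These 4 are also genes of the heart. Over all kept cells the heart gene MYL7 rose 21.9 times in E19 HS, and the part of heart cells in the list was not tested. Between E19 HSTS and E19 HS, 1 of the 17 was changed, where 3.05% of all genes were higher and 4.13% lower. This was the slow troponin T gene TNNT1, which was 2.07 times higher (1.99 to 2.15) in E19 HSTS. TNNT1 had 7095 UMIs in E16 HS, which held no cell with 10 or more MYLPF UMIs, 4034 in E19 HS and 9362 in E19 HSTS. Which cells gave this difference was not tested.

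The fusion and synapse list held few molecules. Of 10 genes, 4 were tested in E19 HS over E16 HS, and 3 were higher, where 8.84% of all genes were higher. CDH15 (M-cadherin of muscle precursors) rose 3.94 times (3.04 to 5.16) and CHRNG (the fetal acetylcholine receptor subunit) 4.87 times (2.46 to 10.5). MUSK, a receptor kinase of the neuromuscular synapse, rose 16.6 times (4.15 to 144) on 26 against 2 UMIs, and reached the minimum through E19 HS alone. In E19 HSTS over E16 HS, 4 of 6 were higher, where 8.39% of all genes were higher. Of these 4, MUSK (29 against 2 UMIs) and CHRNA1 (10 against 0) were tested only because E19 HSTS reached the minimum. Between the breeds, 0 of 6 were changed. Of the fusion genes, MYMK had 1, 6 and 3 UMIs and MYMX had 0 in all libraries.

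**Figure D5:**
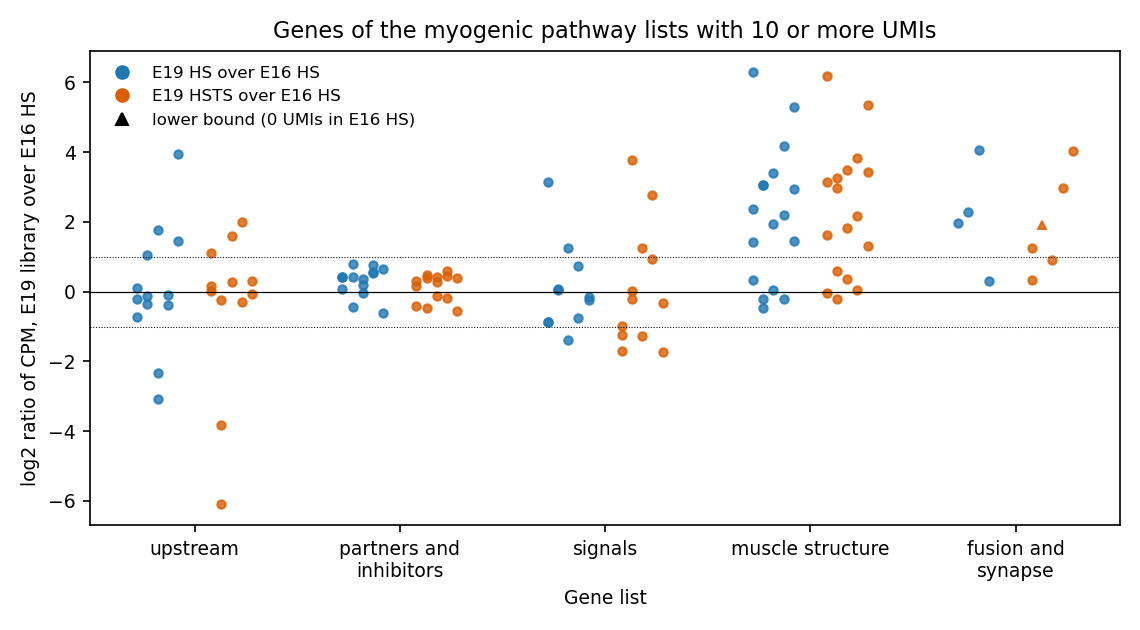
Log2 ratio of CPM for every gene of the 5 lists with 10 or more UMIs in the higher library, E19 HS over E16 HS and E19 HSTS over E16 HS, which share the E16 HS library. Dotted lines mark a ratio of 2 in either direction and triangles are lower bounds. The muscle structure genes lie mostly above 1, with medians of 2.21 and 2.18, and the partners and inhibitors within 1 of 0.

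The genes most like the factors were sought among the 3274 genes with at least 20 UMIs in the factor cells of both day 19 libraries, by the smaller of the 2 ratios of CPM in factor cells to CPM in the other cells. Since the minimum applies to the factor cells alone, genes rare elsewhere enter only through being high there, and the order is a description. The median of that ratio was 1.15, and 25 genes reached 10. The first 10 were MUSK, MYLPF, PRR32, MYH3, MYBPC1, TNNC2, KLHL41, MYL1b, IL17B and JSRP1. In E19 HS, 24 of the 26 MUSK UMIs were in the 134 factor cells, which also held 83 PRR32 UMIs with 14 elsewhere and 37 MYBPC1 UMIs (slow myosin binding protein C) with 3 elsewhere. In E19 HSTS it was 25 MUSK UMIs with 4 elsewhere, 79 PRR32 UMIs with 14 elsewhere and 42 MYBPC1 UMIs with 14 elsewhere. MYLPF was 845 and 300 times higher in factor cells, MYH3 607 and 238 times, and KLHL41, a kelch protein of the sarcomere, 211 and 105 times. MYL1b, an identifier named for a myosin light chain, was 675 and 92.4 times higher, IL17B, a secreted cytokine, 137 and 91.4 times, and JSRP1, a protein of the sarcoplasmic reticulum junction, 118 and 78.1 times. In the E16 HS factor cells MUSK, PRR32, MYH3, MYBPC1 and MYL1b had 0 UMIs.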

How the data were processed

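Whole sheep embryos were profiled by 10x Genomics 3′ single-cell RNA sequencing in 3 libraries. The authors deposited, for each library, a matrix of UMI counts per gene and cell made with Cell Ranger 6.1.2 against a sheep genome, without normalization. The submitters' processing notes also name R 4.1.2 and Seurat 4.1.1. The counts were filtered as the study states (200 to 6000 genes, 1000 to 30000 UMIs, at most 10% MT- UMIs), summed per library and scaled to 1000000 UMIs (CPM). Groups were taken from the sample titles.

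The 4 genes and all gene lists and marker pairs were chosen with earlier results of these data known. Named genes were the 4 factors, PAX3, PAX7, MYLPF and TNNC2, up to 4 list genes per list with a ratio of at least 2 in E19 HS over E16 HS (largest UMI sum first) and the 10 genes most like the factors. Genes beyond this rule (MYH3, ACTC1 and the heart, red cell and other marker genes in cells grouped by MYF6 or MYLPF, and single list genes in E19 HSTS) were named after their values were seen. No clustering was made and no cell type was assigned. Cells were grouped by the genes detected in them, at 1 UMI or more. Ratios set a library with 0 UMIs at 3 UMIs and are then lower bounds.

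With 1 library per condition no test was run. Intervals are at 95% and exact (scipy 1.17.1, numpy 2.4.6, pandas 2.3.3, Python 3.11.15). On simulated Poisson library sums with known changes in 200 genes, 96% of the intervals for the changed genes of E19 HS over E16 HS covered the ratio put in. These sums followed the assumption of the intervals and held no cells. They check the calculation alone and not whether the intervals suit genes whose UMIs lie in few cells. Doublets were not removed in the values reported. Scrublet (scanpy 1.11.5) marked 1.75% of cells in E16 HS, 0% in E19 HS, where it did not work, and 2.01% in E19 HSTS, so an alternative left out the 8% of cells with the highest scores. Other alternatives were a stricter cell filter (at least 500 genes, under 5% mitochondrial UMIs), no filter, removal of red cells, thinning to 3000 UMIs per cell, detection at 2 UMIs, and scaling with edgeR 4.0.16 TMM (R 4.3.3), DESeq2 1.42.0 size factors or UMIs outside red cells. Removal of cells with 10 or more AHSP UMIs was added after the data were seen. No sequence is shown, since no genome of the files' build was used here.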

Additional observations from a re-analysis of the deposited data

Results flagged for a closer look

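Factor UMIs were also present in the barcodes outside the cell filter, which enter no comparison above. MYF6 had 20 UMIs there in E16 HS, 12 in E19 HS and 39 in E19 HSTS, and MYF5 had 7 in E19 HSTS. Most of the MYF6 UMIs (18, 11 and 34) were in barcodes with over 30000 UMIs. The level of MYF6 in the barcodes left out was 1.33 CPM (0.811 to 2.05) in E16 HS, 1.99 (1.03 to 3.48) in E19 HS and 4.73 (3.37 to 6.47) in E19 HSTS, and the interval held the level of the kept cells in E16 HS and E19 HS and lay above it in E19 HSTS. Whether such barcodes are doublets or large cells was not tested. No library gave a group with enough samples to look for outlying samples.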

How the results depend on the processing

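No ratio of MYF5, MYF6 or MYOG that reached 2 fell below 1 under any alternative run. The ratios of MYF6, PAX3, MYLPF and TNNC2 moved where red cells were left out or not counted. For MYF6, E19 HSTS over E16 HS became 4.31 without the AHSP and BLVRB cells and 4.02 without cells with 10 or more AHSP UMIs (added after the data were seen), and E19 HSTS over E19 HS became 1.31 and 1.22, or 1.36 when scaled to UMIs outside the red cell pair. Without the AHSP and BLVRB cells, the MYF5 ratio of E19 HSTS over E16 HS went from 3.77 to 5.91 and that of E19 HSTS over E19 HS from 1.45 to 1.89, whose interval (1.28 to 2.82) no longer holds 1, MYLPF of E19 HSTS over E16 HS went from 41.0 to 69.3 and over E19 HS from 1.05 to 1.40, TNNC2 over E19 HS from 0.779 to 1.02, and PAX3 from 1.22 to 1.58 over E16 HS and from 1.31 to 1.68 over E19 HS. MYOG of E19 HS over E16 HS went from 3.40 to 2.96. Thinning to 3000 UMIs per cell lowered the share of MYF5 cells with PAX3 in E19 HS to 35.3%, of MYF5 cells with MYF6 to 29.4% in E19 HS and 22.2% in E19 HSTS, and of MYF6 cells with PAX3 to 18.2% and 16.7%, and put MYOG cells with MYF6 in E19 HS at 100% of 2 cells. With detection at 2 or more UMIs, MYF6 cells had PAX3 in 17.0% and 22.2%, MYLPF in 44.7% and 52.8% and TNNC2 in 53.2% and 55.6% (E19 HS and E19 HSTS), MYF5 cells had PAX3 in 0% of 7 cells in E19 HS, and the only MYOG cell left in E19 HS had no MYF6 (0%) and had MYLPF (100%). The cause was not tested, though both alternatives leave fewer cells. TMM scaling shifted the log2 ratios of all genes by 0.21 in E19 HS over E16 HS, 0.27 in E19 HSTS over E16 HS and 0.06 in E19 HSTS over E19 HS, DESeq2 size factors by 0.18, 0.23 and 0.05, and scaling outside red cells by -0.20, 0.25 and 0.45. With a minimum of 1 UMI in place of 10, 2534 genes were higher and 2286 lower in E19 HS over E16 HS (1293 and 1320 with 10), 2376 and 2724 in E19 HSTS over E16 HS (1232 and 1759), and 1401 and 1777 in E19 HSTS over E19 HS (440 and 595). Of all the alternative values, 81 of the co-detection shares stayed within their interval and 15 moved, 116 of the ratios stayed and 28 moved, and 63 of the shares of cells stayed and 21 moved. No paired analysis was possible because each condition has 1 library. Depth limits MYOG and MYOD1, with at most 13 and 4 UMIs in a library.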
